A study of Drosophila melanogaster with 6 samples.

Results

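Among the transcripts of GFP-sorted embryonic cells of Drosophila melanogaster, 43 probe sets had a strong signal on every array and lay at least 1 log2 unit lower when the forkhead gene jumu was overexpressed. They were chosen from the deposited log2 signals by a fixed rule: all 6 values 8 or more, and the mean of 3 UAS-jumu arrays minus the mean of 3 control arrays -1 or lower. Of 18769 probe sets other than Affymetrix controls, 5651 had all 6 values 8 or more, and 50 of those (0.885%) also met the difference. The rule leaves out 20 genes by name; 7 of the 50 probe sets belonged to them (fne, D, nerfin-1, insb, repo, grh and kni), which left the 43. Because the difference between the genotypes chose these probe sets, their differences are given as a description and carry no test.

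Both genotypes carried twi-GAL4, a driver active in cells that express Twist, and the GFP reporter UAS-2EGFP; the overexpression genotype, labelled twi-GAL4 UAS-2EGFP/UAS-jumu, added a UAS-jumu insertion that makes Jumu constitutively in the same cells, and the control was labelled twi-GAL4 UAS-2EGFP. No other transgene is named for the control, so equal numbers of UAS insertions cannot be taken from the labels. Both kinds of embryo were kept at 29 °C until they reached stages 11 to 12, when the mesoderm is being divided into muscle, heart and gut precursors, and GFP-positive cells were sorted. There were 3 arrays per genotype, numbered 1 to 3; the labels do not say whether the numbers stand for separate embryo collections, so the spread between them may be technical.

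Jumu belongs to the forkhead family, whose members bind DNA through a winged-helix domain and can act on the division and the identity of precursor cells. In a sorted pool such as this, fewer cells of a type and less RNA per cell cannot be told apart.

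The overexpressed gene was checked first: jumu had log2 signals of 13.57, 13.31 and 13.61 in UAS-jumu cells and 11.33, 11.55 and 11.43 in controls. Of 6 measured mesoderm markers 1, zfh1, had a lower mean in UAS-jumu cells, by -0.05, and the log2 of their summed signal was 14.51 on all UAS-jumu arrays against 14.05 to 14.11 on the controls. Markers of other tissues were also measured in both genotypes, and their direction differed by tissue. All 5 measured neuron markers had a lower mean (log2 of the sum 12.65 to 12.70 in UAS-jumu cells, 13.62 to 13.64 in controls), with nSyb and brp under 6 on every array. The sum was mostly elav, at a mean of 12.44 in UAS-jumu cells and 13.35 in controls. For nSyb the difference was only -0.17, with an SD of 0.67 in each group, and for futsch it was -0.34. All 6 neuroblast markers had a lower mean (log2 of the sum 12.98 to 13.02 in UAS-jumu cells, 13.60 in controls). Their differences ran from -1.24 for D to -0.15 for wor, whose groups overlapped. All 4 measured epidermis and tracheal markers, among them the member vvl, also had a lower mean (12.30 to 12.37 in UAS-jumu cells, 13.05 to 13.07 in controls). The 3 glia markers went different ways: repo differed by -1.11 (8.27 in UAS-jumu cells, 9.39 in controls), loco was level (10.92 and 10.93) and gcm was higher by 0.41. Their sum, mostly gcm and loco, was 12.15 to 12.32 in UAS-jumu cells and 12.10 to 12.19 in controls. The gene gcm is also on the blood cell list used below. Of 6 blood cell markers Pxn and PPO1 were lower and vkg, Col4a1, lz and He higher, with a sum of 13.63 to 13.69 in UAS-jumu cells and 13.98 to 13.99 in controls. The 2 measured endoderm markers summed to 9.77 to 9.92 in UAS-jumu cells and 10.19 to 10.32 in controls. Of these GATAe was level (9.31 in UAS-jumu cells, 9.33 in controls), and hkb differed by -1.07. The 2 measured muscle markers summed to 10.49 to 10.66 in UAS-jumu cells and 11.42 to 11.68 in controls. Both muscle markers (Mlp60A, -0.95, and TpnC73F, -0.90) are genes that the rule leaves out by name. So are elav, fne, SoxN, D, repo, grh, PPO1 and hkb among the other markers. In the longer muscle list used below, the 11 genes not so named had a median difference of -0.36. The part of these cell types in the differences below was not tested.

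The 43 differences ran from -1.92 to -1.01, so that the signal in UAS-jumu cells was 26.3% to 49.6% of the control signal (median 41.5%). Their median was -1.27, beside 0.01 for all 5651 strongly measured probe sets. In 10 of the 43 the difference was -1.5 or lower, in 23 it was -1.25 or lower, and in the other 20 it lay between that and the threshold. The groups did not overlap in any of the 43, and the lowest control value exceeded the highest UAS-jumu value by 0.62 to 1.70. The choice of members makes such separation likely; of all 5651, 27.8% had all UAS-jumu values under all control values. In the other direction, 43 of the 5651 probe sets (0.761%) were higher by 1 or more.

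**Figure D1:**
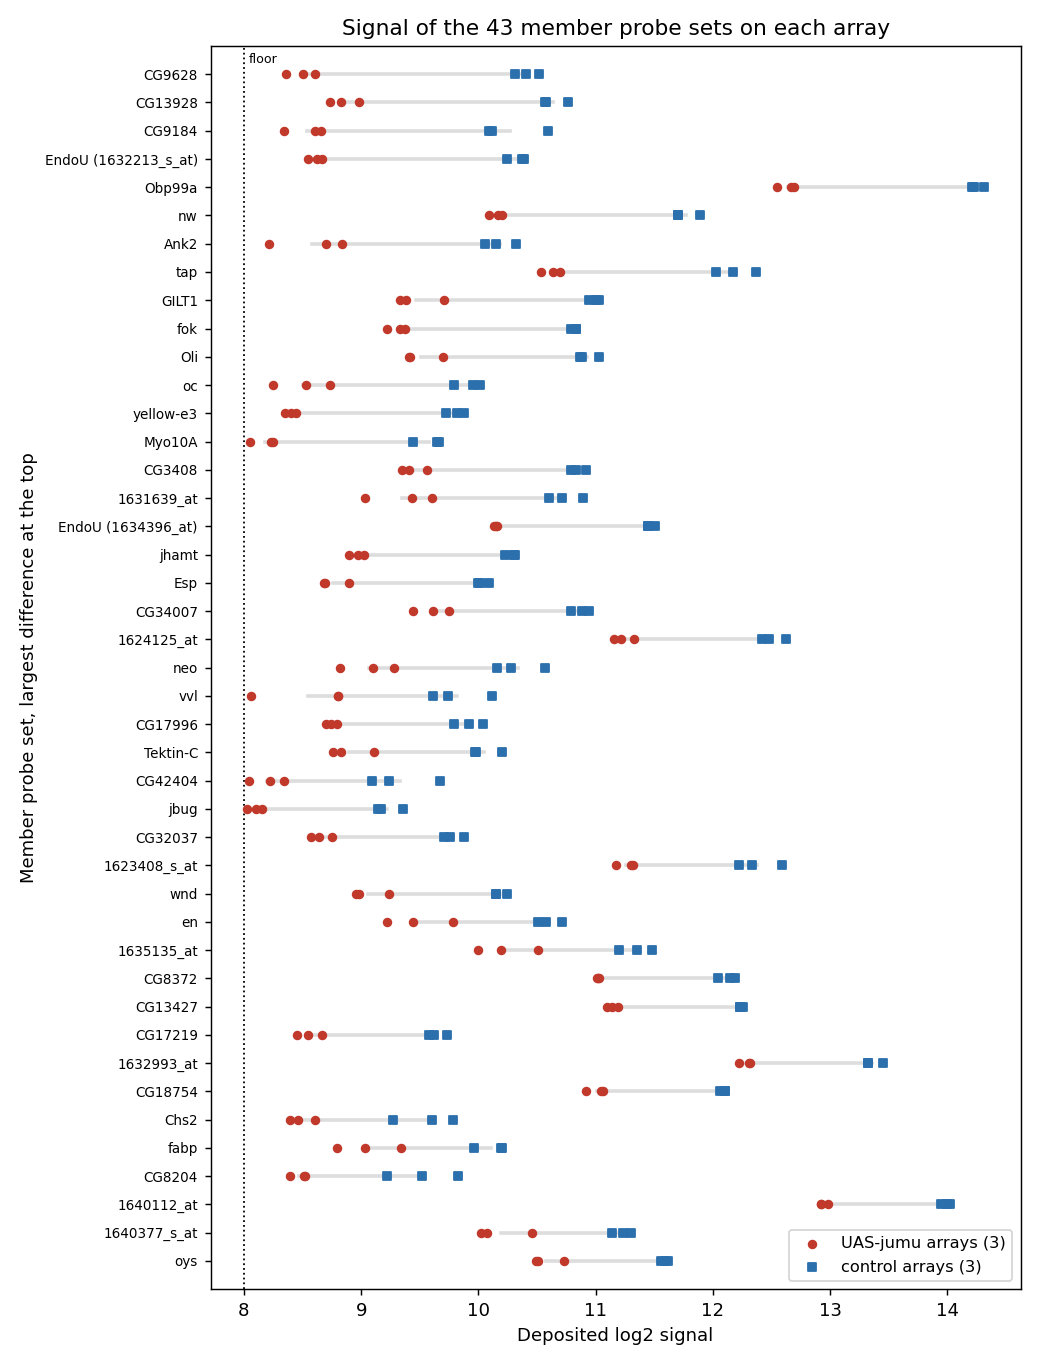
Deposited log2 signal (x axis) of each of the 43 member probe sets (rows, lowest difference at the top) on the 3 UAS-jumu arrays (red circles) and the 3 control arrays (blue squares); the grey line joins the group means and the dotted line is the floor of 8. In every row the 3 red points lie left of the 3 blue points, with a gap of 0.62 to 1.70.

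Replicates of these probe sets were close. The SD over 3 arrays had a median of 0.11 in UAS-jumu cells and 0.10 in controls, against 0.07 and 0.08 in the 4229 other strongly measured probe sets within the same range of control signal. The SD was larger in UAS-jumu cells for 27 of the 43. No single array carried the set: UAS-jumu replicates 1, 2 and 3 were the lowest of their group in 15, 13 and 15 probe sets, and control replicates 1, 2 and 3 the highest of theirs in 10, 15 and 18. Averaged over the 43, an array deviated from its group mean by -0.022 to 0.032. The widest spread in UAS-jumu cells was that of vvl (0.43), where replicate 2 stood apart, and the widest in controls were those of CG42404 and CG8204 (0.30 each).

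Differences in the deposited values drifted with signal. Over the strongly measured probe sets the median difference was 0.10 where the control mean was between 8 and 9, 0.00 between 10 and 11, -0.14 between 13 and 14 and -0.33 at 15 or more. The floor also bounds the set from below, since a probe set with a control mean under 9 cannot lie 1 lower and stay at 8: none of the 923 in that range is a member, and the 43 come from the 4728 at 9 or more. After quantile normalization, which gives all arrays 1 distribution, the 43 differences ran from -1.94 to -0.95. Array medians over all probe sets were 5.43, 5.30 and 5.09 in UAS-jumu cells and 5.61, 5.64 and 5.38 in controls, so that 1 UAS-jumu array lay above 1 control array. Centring on these medians shifted every difference by 0.27 and left 21 probe sets under the rule, 20 of them among the 43.

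**Figure D2:**
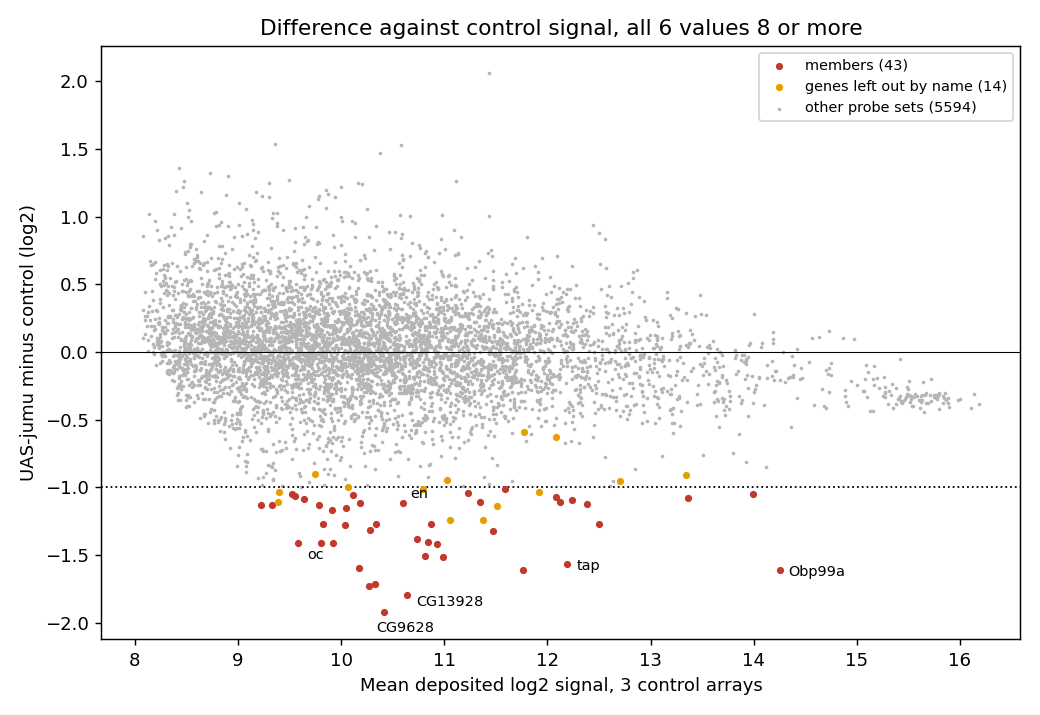
Difference between the genotypes (UAS-jumu minus control, log2, y axis) against the mean control signal (log2, x axis) for the 5651 strongly measured probe sets; red, the 43 members; orange, the genes left out by name; grey, all others; dotted line, the threshold of -1. The lowest members are CG9628 and CG13928, at -1.92 and -1.79.

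The threshold cut through a continuous range. Nearest inside it was oys at -1.01, and just outside were cas, a zinc finger factor of late neuroblasts (-0.9976), an unnamed probe set (-0.9927) and sug (-0.9915). On the side of the signal floor, jbug had a lowest value of 8.03, whereas NaPi-III (lowest value 7.97, difference -1.04), CG7966 (7.99, -1.12) and Idh, the NADP-dependent isocitrate dehydrogenase gene (7.94, -1.70), had a value just short of 8 and are no members.

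In the annotation used, 36 of the 43 probe sets were paired with 1 gene, 1 with several and 6 with none. They named 35 protein-coding genes, EndoU through 2 probe sets, and 22 of these genes have a name of their own while 13 have a computed CG number only. As a share, 37.1% of the member genes carry a CG number only, beside 26.9% of the 4710 genes with a strongly measured probe set. Of the 43 probe sets 6 end in _s_at, Affymetrix's mark for probes that can match transcripts of more than 1 gene: those of nw, wnd and en, 1 of EndoU, the one paired with several genes and 1 without a gene.

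Among the members were 5 transcription factor genes, with differences of -1.57 to -1.12. The lowest, tap, encodes a basic helix-loop-helix (bHLH) factor of the neurogenin family expressed in neural precursors. Its signals were 10.53, 10.70 and 10.64 in UAS-jumu cells and 12.17, 12.03 and 12.37 in controls, which is 33.7% of the control signal. A second bHLH gene, Oli, the Drosophila relative of the vertebrate Olig genes and known from motor neurons, had 9.42, 9.41 and 9.70 in UAS-jumu cells and 11.03, 10.87 and 10.88 in controls (-1.42). The head gap gene oc (orthodenticle), a homeobox factor of the head and the ventral midline, had 8.53, 8.73 and 8.25 in UAS-jumu cells and 9.95, 10.01 and 9.79 in controls (-1.41). All 3 thus stood at 33.7% to 37.5% of their control signal with no overlap.

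The POU domain gene vvl, which acts in tracheal cells and in neurons, had 8.80, 8.06 and 8.80 in UAS-jumu cells and 10.12, 9.74 and 9.61 in controls (-1.27). UAS-jumu replicate 2 was the low one, and without it the difference was -1.02. The segment polarity gene en, a homeobox factor of posterior compartments, had 9.22, 9.78 and 9.44 in UAS-jumu cells and 10.51, 10.58 and 10.71 in controls (-1.12).

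Another 5 members act on the cytoskeleton or in axons, with differences of -1.59 to -1.12. Ank2, a neuronal ankyrin that links the membrane skeleton to the microtubules at synapses, had 8.84, 8.21 and 8.70 in UAS-jumu cells and 10.06, 10.32 and 10.15 in controls (-1.59). The kinase gene wnd (wallenda), whose product signals axonal injury upstream of JNK, had 8.96, 9.24 and 8.98 in UAS-jumu cells and 10.15, 10.15 and 10.24 in controls (-1.12). An unconventional myosin gene of class XV, Myo10A, had 8.05, 8.25 and 8.23 in UAS-jumu cells and 9.44, 9.66 and 9.65 in controls (-1.41). For these 3 the lowest control value exceeded the highest UAS-jumu value by 0.91 to 1.22. The actin crosslinker gene jbug (jitterbug, of the filamin type) had 8.03, 8.15 and 8.10 in UAS-jumu cells and 9.36, 9.17 and 9.14 in controls (-1.13). Tektin-C, named for the filament proteins of ciliary and flagellar microtubules, had 9.11, 8.76 and 8.83 in UAS-jumu cells and 9.98, 9.97 and 10.20 in controls (-1.15).

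Another 6 genes encode secreted, matrix or membrane proteins, with differences of -1.61 to -1.06. Obp99a, of the odorant binding proteins that carry small hydrophobic molecules, had 12.67, 12.69 and 12.55 in UAS-jumu cells and 14.23, 14.31 and 14.21 in controls (-1.61), in a range of signal where the median difference was -0.19. The gene nw (narrow), for a C-type lectin-like protein that shapes the wing, had 10.17, 10.20 and 10.09 in UAS-jumu cells and 11.70, 11.89 and 11.70 in controls (-1.61). For both, UAS-jumu cells held 32.7% of the control signal. The cuticle-related gene yellow-e3 had 8.44, 8.35 and 8.40 in UAS-jumu cells and 9.72, 9.88 and 9.82 in controls (-1.41). For neo (neyo), a zona pellucida (ZP) domain protein of the apical matrix of epidermal cells, the values were 9.10, 9.28 and 8.82 in UAS-jumu cells and 10.16, 10.28 and 10.57 in controls (-1.27). Both genes thus lay low on all 3 UAS-jumu arrays. Esp, named for its stripes and patches in the epidermis, averaged 8.76 ± 0.13 in UAS-jumu cells and 10.03 ± 0.05 in controls (SD, n = 3; -1.28). The chitin synthase gene Chs2, known from the gut lining, had 8.61, 8.46 and 8.39 in UAS-jumu cells and 9.27, 9.60 and 9.78 in controls (-1.06).

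Enzymes and lipid-handling proteins made up 5 genes, at -1.72 to -1.01. EndoU, an endoribonuclease gene, was seen by both its probe sets. The one ending in _s_at had 8.67, 8.62 and 8.55 in UAS-jumu cells and 10.37, 10.39 and 10.24 in controls (-1.72), and the other 10.16, 10.15 and 10.13 in UAS-jumu cells and 11.45, 11.45 and 11.51 in controls (-1.32). These are different probes on the same RNA samples and do not replicate each other. GILT1, a lysosomal thiol reductase gene, had 9.33, 9.38 and 9.71 in UAS-jumu cells and 11.00, 10.94 and 11.03 in controls (-1.52). The juvenile hormone acid methyltransferase gene jhamt, for a late step of juvenile hormone synthesis, had 8.90, 9.02 and 8.97 in UAS-jumu cells and 10.30, 10.31 and 10.23 in controls (-1.31). Both were low on every UAS-jumu array. The fatty acid binding protein gene fabp had 9.34, 8.79 and 9.03 in UAS-jumu cells and 10.20, 9.96 and 10.19 in controls (-1.06), with the narrowest gap of the 43, 0.62. For the membrane-bound acyltransferase gene oys the values were 10.73, 10.51 and 10.49 in UAS-jumu cells and 11.62, 11.59 and 11.56 in controls (-1.01).

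The 3 lowest differences of all belonged to genes known by a CG number only, CG9628 (-1.92) and CG13928 (-1.79) and CG9184 (-1.73). CG9628 had 8.50, 8.61 and 8.36 in UAS-jumu cells and 10.41, 10.31 and 10.52 in controls, a signal 3.80-fold lower in UAS-jumu cells. CG13928 had 8.98, 8.73 and 8.83 in UAS-jumu cells and 10.57, 10.58 and 10.76 in controls, and CG9184 had 8.66, 8.34 and 8.61 in UAS-jumu cells and 10.09, 10.12 and 10.59 in controls. The remaining 10 such genes were CG3408, CG34007, CG17996, CG42404, CG32037, CG8372, CG13427, CG17219 (also METTL18 in the gene table), CG18754 (also cSP61 there) and CG8204, with the highest difference, -1.05, in CG8204. Among them CG8372 and CG13427 had the tightest replicates, at 11.02 ± 0.01 (SD, n = 3) in UAS-jumu cells and 12.13 ± 0.07 (SD, n = 3) in controls for CG8372, and 11.14 ± 0.04 (SD, n = 3) in UAS-jumu cells and 12.24 ± 0.02 (SD, n = 3) in controls for CG13427. The 6 probe sets with no gene ranged from -1.38 to -1.04.

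Of the member genes 6 had more than 1 probe set. EndoU apart, 5 genes had 8 further probe sets, none with all 6 values 8 or more; 7 of the 8 had a negative difference and 5 had both group means under 6, where replicates vary widely. The better measured ones were in Ank2, with means of 8.21 in UAS-jumu cells and 9.35 in controls (-1.15) and of 6.39 in UAS-jumu cells and 8.09 in controls (-1.70), and in vvl, with 6.83, 6.94 and 6.92 in UAS-jumu cells and 8.48, 8.47 and 8.47 in controls (-1.57). That second probe set of vvl had SDs of 0.06 in UAS-jumu cells and 0.01 in controls, so the low UAS-jumu replicate 2 of the first was not seen in it. The exception in sign was the dim second probe set of fok (5.37 in UAS-jumu cells, 4.77 in controls).

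Relatives of the members were then compared, in 14 families or pathways written down after the members were known. The rule had been applied to these genes too, on the same arrays and the same difference, so their tests are not independent of it. A strongly measured relative at -1 or lower would be a member unless left out by name. Fer3, yellow-e2 and Obp99c, given below, met the difference and missed the rule on signal alone. Each relative was tested in limma on quantile-normalized values, with Benjamini-Hochberg adjustment over all 18769 probe sets. A gene is said to have risen or fallen where its adjusted p was under 0.05. Of 99 tested relatives 4 fell and 0 rose, where over all 11983 genes 1.71% fell and 1.61% rose; the median difference of the relatives was -0.18, against -0.01 for all genes, and 62 of them had both group means under 6. The 4 were Fer3, a bHLH gene related to tap and Oli (6.93 ± 0.03 in UAS-jumu cells and 8.53 ± 0.14 in controls, SD, n = 3; log2 change -1.57 ± 0.12 SE, limma adjusted p = 0.0213), yellow-e2 (-1.35 ± 0.14 SE, adjusted p = 0.0287), Obp99c (-1.05 ± 0.14 SE, adjusted p = 0.0394) and dpy, a giant ZP domain protein of the apical matrix (-0.73 ± 0.11 SE, adjusted p = 0.0442). All 4 calls were lost on leaving out any 1 of the 6 arrays (adjusted p 0.0625 to 0.161), with no change of sign, and also with each array centred on its median.

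In the bHLH family all 7 tested genes had a negative difference and Fer3 alone passed. Of 46 further odorant binding protein genes 43 had both group means under 6, and Obp99c was the 1 that fell. The 2 other GILT genes were strongly measured: GILT2 differed by -0.18 ± 0.09 (SE, limma adjusted p = 0.372; 0.11 with median centring) and GILT3 by 0.04 ± 0.09 (adjusted p = 0.863). The ankyrin gene Ank differed by -0.04 ± 0.10 (SE, limma adjusted p = 0.884), and by 0.25 with median centring. The filamin gene cher differed by -0.29 ± 0.19 (SE, limma adjusted p = 0.503), and by 0.00 with median centring. In the wnd pathway 0 of 6 tested genes passed, among them hiw, the ubiquitin ligase that lowers Wnd (-0.83 ± 0.19 SE, adjusted p = 0.0982), and the JNK gene bsk, at 12.16 in UAS-jumu cells and 12.26 in controls. The epidermal chitin synthase gene kkv differed by -0.68 ± 0.15 (SE, adjusted p = 0.0930), and Kr-h1, a zinc finger gene induced by juvenile hormone, by -0.65 ± 0.11 (SE, adjusted p = 0.0578). The POU genes nub and pdm2 were at -0.54 and -0.38, also without passing.

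In the order of protein-coding genes in the RefSeq table, 0 of the 70 places directly beside a member gene were held by another member. Of these places 54 had a measured gene, 53 different ones. Their differences ran from -2.07 to 1.31 with a median of -0.23, beside -0.08 for all genes, and 10 of the 53 were at -1 or lower, where 13.6% of all genes were. Of these 10, 6 had both group means under 6. Among the others were yellow-e2, inv and SPE, described below. The 23 strongly measured neighbours ran from -0.62 to 1.1 with a median of 0.11. Of these neighbours 13 had a positive and 9 a negative difference, and 0 were at -1 or lower. That last count follows from the rule, since such a gene would be a member unless left out by name, and 0 of the 70 places held a member. The negative median of the 53 was not seen among these 23, where the median was 0.11. Of the members 2 pairs were separated by 1 gene. GILT1 and yellow-e3 flank Dpm3, which no probe set was paired with, and CG32037 and CG3408 flank path, an amino acid transporter gene, which had 13.15 ± 0.08 in UAS-jumu cells and 13.35 ± 0.08 in controls (SD, n = 3; -0.17 ± 0.10 SE, limma adjusted p = 0.448; 0.06 with median centring) while the genes on its sides were at -1.13 and -1.41.

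Around yellow-e3 on 3R, 3 measured genes in order were lower. Next to GILT1 and yellow-e3 lay yellow-e2, at 7.67 ± 0.18 in UAS-jumu cells and 9.01 ± 0.12 in controls (SD, n = 3), which fell as given above and missed the rule on its signal. Beyond it, yellow-e and Ir87a had means under 6, and Act87E (13.84 in UAS-jumu cells, 13.93 in controls) and yrt (11.31 in UAS-jumu cells, 11.15 in controls) differed by -0.09 and 0.16. On 2R, inv, the homeobox gene beside en and its close relative, had 6.31 ± 0.16 in UAS-jumu cells and 7.46 ± 0.35 in controls (SD, n = 3); its difference of -1.04 ± 0.21 (SE) did not pass (limma adjusted p = 0.0836), and the probe set of en is one whose probes may match more than 1 gene. Further along, atos rose (11.09 ± 0.02 in UAS-jumu cells and 10.13 ± 0.05 in controls, SD, n = 3; log2 change 0.93 ± 0.09 SE, limma adjusted p = 0.0262, and 0.0892 to 0.117 without any 1 array); this call and that of neb were also lost with median centring.

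At fok on 2L the neighbours went opposite ways. The gene table has fok overlapping neb, which encodes the mitotic kinesin Klp38B. The signal of fok was 9.37, 9.33 and 9.22 in UAS-jumu cells and 10.79, 10.83 and 10.83 in controls (-1.51), whereas neb rose, to 10.11 ± 0.14 in UAS-jumu cells against 9.01 ± 0.07 in controls (SD, n = 3; log2 change 1.07 ± 0.12 SE, limma adjusted p = 0.0307). Without any 1 array the change of neb was 1.00 to 1.15 and its adjusted p 0.0966 to 0.125. CG10747, on the other side of fok, had 8.72 in UAS-jumu cells and 8.62 in controls. The member CG18754 also overlaps a neighbour, SPE, a serine protease gene of Toll signalling, which differed by -1.18 ± 0.32 (SE, limma adjusted p = 0.14).

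**Figure D3:**
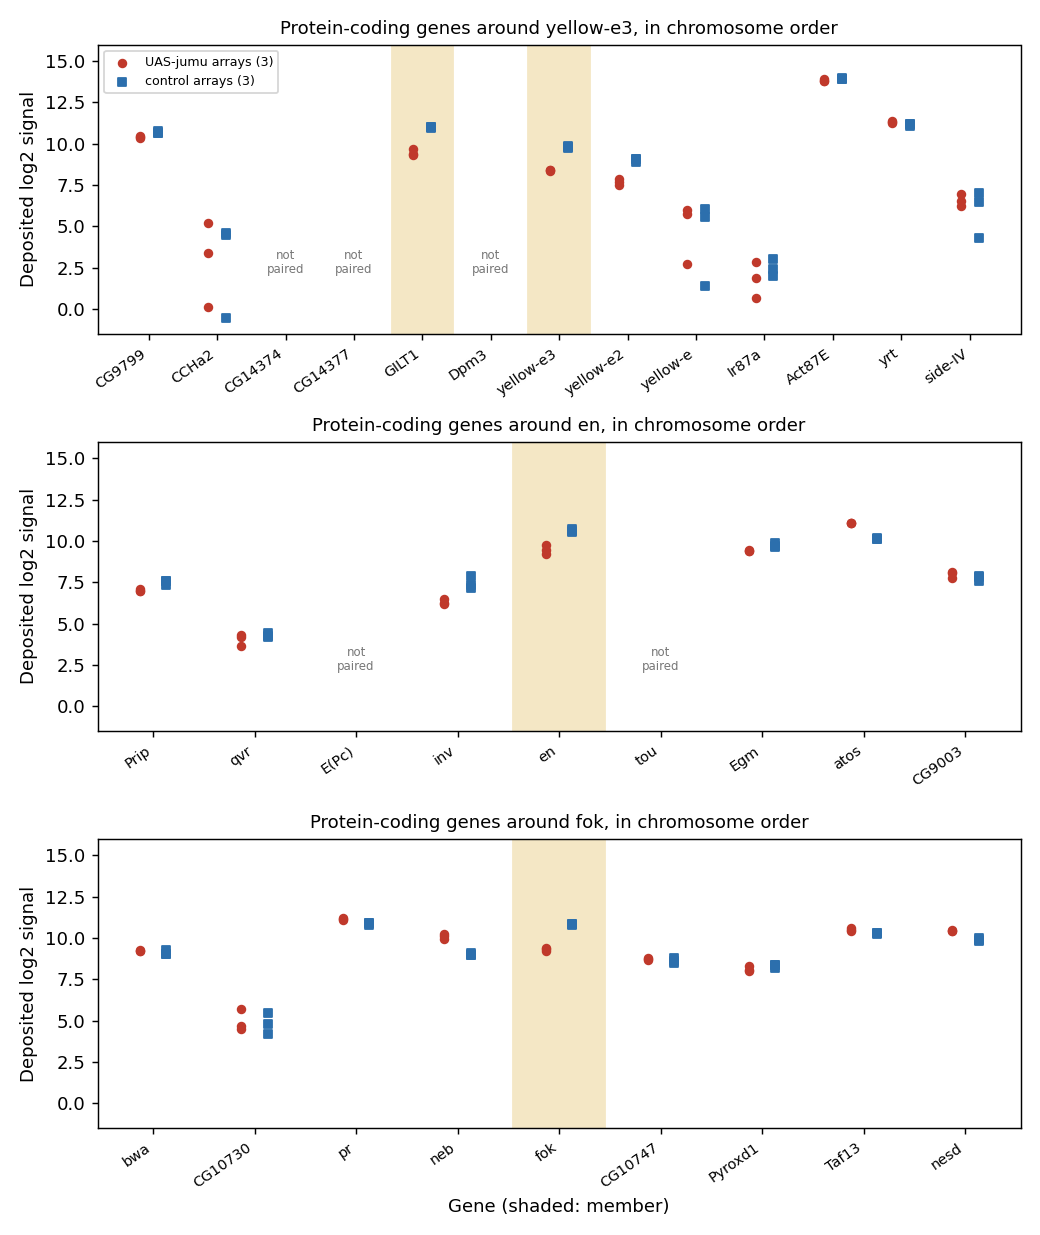
Deposited log2 signal (y axis) on the 3 UAS-jumu arrays (red circles) and the 3 control arrays (blue squares) for protein-coding genes in chromosome order (x axis, evenly spaced) around yellow-e3, en and fok; members are shaded and genes with no single-gene probe set are marked not paired. GILT1, yellow-e3 and yellow-e2 are low together, inv lies beside en, and neb is higher in UAS-jumu cells while fok is lower.

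The 35 genes were spread over the large chromosome arms. There were 11 on 3L (31.4%), 9 on 3R (25.7%), 7 on 2L (20.0%), 6 on 2R (17.1%) and 2 on X (5.7%), where the 4710 genes with a strongly measured probe set had 19.4%, 24.4%, 18.2%, 20.3% and 16.8%. With 35 genes these shares are counts of a chosen set and were not tested.

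The 15 lists of tissue and pathway genes placed the members among genes of known expression. Of the 35 member genes 4 were on a list, tap among neuroblast and proneural genes, vvl among epidermis and trachea genes, en among segmentation genes, and oc among both midline and segmentation genes. Of the other list genes, 200 were tested, leaving out those that the rule names; 12 fell and 5 rose in limma, where 1.71% and 1.61% of all genes did so, and the median was -0.11. Unadjusted, 64 had a limma p under 0.05 and were lower and 32 were higher. The share of all genes with such a p is not given here, so unadjusted counts here and below are not read as a result about the lists. As with the relatives, the rule had been applied to all list genes too. In the neuroblast and proneural list 2 of 21 fell, Sox21b, an HMG-box gene (4.95 ± 0.63 in UAS-jumu cells and 7.07 ± 0.09 in controls, SD, n = 3; log2 change -1.92 ± 0.25 SE, adjusted p = 0.0390) and cas (-1.01 ± 0.16 SE, adjusted p = 0.0489), and 18 had a negative difference. In the neuron list 2 of 28 fell, the axon guidance gene beat-Ia (-1.65 ± 0.20 SE, adjusted p = 0.0356) and Appl, the fly relative of the amyloid precursor gene (-1.14 ± 0.17 SE, adjusted p = 0.0458), and the semaphorin gene Sema1a rose (0.78 ± 0.11 SE, adjusted p = 0.0429). Of these 28 genes 16 had a negative and 12 a positive difference. Of 10 sense organ genes 2 fell, sens (-1.12 ± 0.15 SE, adjusted p = 0.0395) and Poxn (-0.74 ± 0.11 SE, adjusted p = 0.0455), whose means were 5.18 in UAS-jumu cells and 6.18 in controls and whose adjusted p was 0.376 with an intensity trend in limma, and of 22 epidermis and trachea genes 1 fell, the claudin gene sinu (-0.73 ± 0.09 SE, adjusted p = 0.0367).

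Elsewhere the lists gave few calls. Of 20 further segmentation genes 0 passed, with 6 lower and 3 higher at an unadjusted p under 0.05 in limma. Of 8 further glia and midline genes 0 passed, with 1 lower and 3 higher unadjusted, and their median was 0.33. In the ecdysone list 2 of 19 fell, ImpE2 (-1.25 ± 0.16 SE, adjusted p = 0.0383) and ImpL1 (-0.94 ± 0.14 SE, adjusted p = 0.0483), in the cell death list 1 of 5, the death activator grim (-1.87 ± 0.27 SE, adjusted p = 0.0439), and in the muscle list 1 of 11, the arginine kinase gene Argk1 (-0.77 ± 0.09 SE, adjusted p = 0.0336). In the blood cell list 1 of 13 fell, the peroxidase gene Pxn (-0.64 ± 0.09 SE, adjusted p = 0.0425), and 0 rose, but 10 of the 13 had a positive difference and the median was 0.47. Unadjusted, 7 of them were higher and 2 lower at a limma p under 0.05. The hemocyte genes He (6.84, 6.45 and 6.45 in UAS-jumu cells, 1.26, 3.95 and 0.44 in controls; adjusted p = 0.0646) and Hml (7.92, 7.96 and 8.05 in UAS-jumu cells, 4.80, 0.94 and 4.11 in controls; adjusted p = 0.105) had the largest differences of the list, with dim and scattered controls; both are named here after their values were seen. In the mesoderm list 4 of 21 rose and 0 fell, namely rols (0.97 ± 0.10 SE, adjusted p = 0.0307), htl (1.03 ± 0.11 SE, adjusted p = 0.0307) and sns (0.94 ± 0.11 SE, adjusted p = 0.0329), all genes of myoblast fusion or early mesoderm signalling, and lmd, a factor of fusing myoblasts (0.70 ± 0.09 SE, adjusted p = 0.0383), with a list median of 0.41. No mesoderm list gene is a member. The endoderm, glycolysis, Notch target and JAK/STAT lists had 0 calls among 10, 8, 9 and 4 genes, with 5, 4, 5 and 1 at an unadjusted p under 0.05. Each list gene named here as having risen or fallen was no longer past the threshold on leaving out any 1 of the 6 arrays (adjusted p 0.0962 to 0.166), with the same sign throughout.

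**Figure D4:**
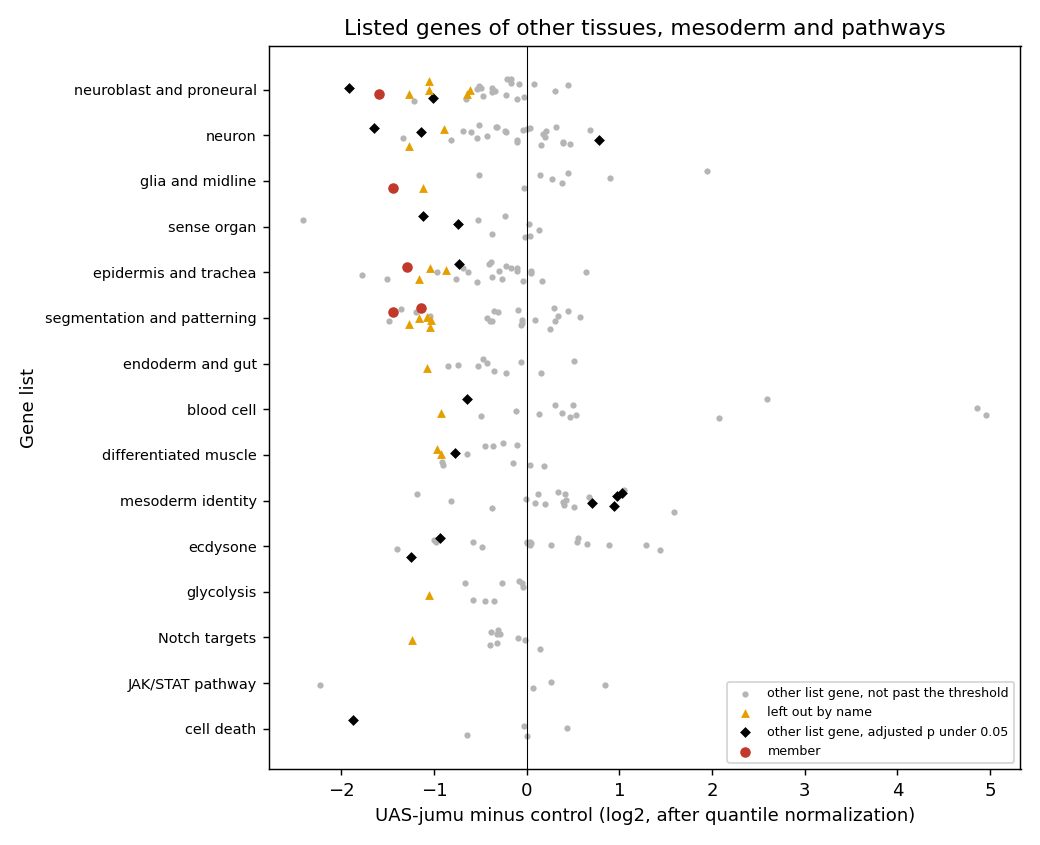
Difference between the genotypes (UAS-jumu minus control, log2 after quantile normalization, x axis) of every measured gene in 15 lists (rows, spread vertically only to separate points): red circles, members; orange triangles, genes the rule leaves out by name; black diamonds, other genes with a limma adjusted p under 0.05; grey, the rest. The 4 listed members lie between -1.59 and -1.14, and black points lie left of 0 except for Sema1a and 4 mesoderm genes.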

How the data were processed

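Affymetrix arrays of RNA from sorted cells were analysed, 3 per genotype. The authors deposited log2 signals per probe set; affy is named in the submitters' processing notes, and the sources used here do not give other steps. Array medians of these log2 values were 5.09 to 5.43 in UAS-jumu samples and 5.38 to 5.64 in controls. The number of arrays limits the precision. Members were taken from the deposited values, with means and SDs (n = 3). Other genes, each by its brightest probe set, were quantile-normalized and tested by lmFit and eBayes (limma 3.58.1, R 4.3.3), with Benjamini-Hochberg adjustment over 18769 probe sets; the fit was tested on simulated data. Named here were all members, plus every list, family or neighbouring gene past an adjusted p of 0.05, relatives and neighbours of members, and genes nearest the thresholds. The rule set for list genes had been up to 3 per list with the smallest p among those past the threshold. The list genes lmd, He and Hml lie outside that rule. The members and all lists were chosen with earlier results of these data known, and families and roles after the members were known. Gene names came from the platform annotation and the RefSeq gene table, Release 6, in which 13544 of 13647 single-gene probe sets were matched. Alternatives were other scalings, floors, fits and leaving out each array.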

Additional observations from a re-analysis of the deposited data

How the results depend on the processing

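The rule gave 43 probe sets on the deposited values, 49 after quantile normalization (42 shared), 50 after centring on the strongly measured probe sets and 42 with the brightest probe set per gene. Centring each array on the median of all probe sets left 21 and moved the median difference to -1.0, since it shifts every difference by 0.27. A floor of 7 gave 81 and a floor of 9 gave 21. Leaving out 1 array gave 44 to 49 probe sets and median differences of -1.29 to -1.21. Of the list genes, 12 fell and 5 rose; 10 and 5 did so without quantile normalization, 62 and 33 with an intensity trend in limma, 62 and 29 among genes with a mean signal of 6 or more, and 24 and 11 with the mean over probe sets. The share of all genes passing under these other fits is not given here, so a larger count is not a result about the lists. With median centring 0 and 0 passed in limma (unadjusted p under 0.05: 22 and 34). Same-numbered arrays did not deviate together over all probe sets (r -0.012, 0.003 and 0.01). Where the mean log2 signal was over 8, r was -0.062, 0.024 and 0.024, and -0.085 to 0.068 between differently numbered arrays. Most probe sets are dim and vary widely, so these values cannot settle whether the numbers pair the samples. With the replicate block 0 and 0 passed in limma (unadjusted 48 and 19). Without any 1 array 0 list genes fell (unadjusted 52 to 59) and 0 to 2 rose (unadjusted 22 to 28; 2 without control replicate 2). The cause was not tested. The 23 genes named as having risen or fallen kept their direction, but 0 of them passed with median centring, with the replicate block or without any 1 array, and 22 passed with the trend (Poxn did not). Of the named genes that did not pass, median centring turned GILT2 (0.11), Ank (0.25) and path (0.06) and brought cher to 0.00. Ank also turned with the mean over probe sets (0.44) and on leaving out 1 array (-0.09 to 0.01).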
